A study of Mus musculus with 33 samples.

Results

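The expression of adult haemoglobin genes and of an erythroid haem synthesis gene was followed across every sleep state and genotype of a study of sleep loss in the mouse frontal cortex. The 5 genes are the α-globin genes Hba-a1 and Hba-a2, the β-globin genes Hbb-bs and Hbb-bt, and Alas2, 5 of the 21565 genes in the table of counts per 1000000 reads (CPM). They were selected on results of these same libraries, because Hba-a2 was higher after sleep deprivation, Alas2 was lower in recovery sleep and Hbb-bt was low in the knockout. Their differences between WT sleep states and between the genotypes are therefore given as descriptions without a test. The control-sleep libraries of the knockout and of its floxed control, on which the last of these reasons rests, are also 1 arm of the response to sleep deprivation within each of these genotypes. A fall in the floxed mice and a rise in the knockout are favoured by that choice, so these responses of the 5 genes are descriptions too, and no p-value is given for them.

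The study sequenced polyadenylated RNA of 33 frontal cortex samples from adult male mice on a C57BL/6J background. WT mice slept ad libitum (control sleep, CS; n = 6), were kept awake for 6 hr (sleep deprivation, SD; n = 7), or were deprived for 4 hr and then had 2 hr of recovery sleep (RS; n = 7). Mef2c f/f mice, whose Mef2c gene carries loxP sites around the eleventh exon, were sampled in CS (n = 4) and SD (n = 3). Mef2c-cKO mice carry the same floxed alleles and a Camk2a-Cre transgene, which deletes the exon in forebrain excitatory neurons, and were sampled in CS (n = 3) and SD (n = 3). All animals were housed over a slow treadmill, which kept them awake in SD and RS, and were moved to constant darkness more than a day before sampling. According to the study's methods, some offspring of the cross carried a recombined Mef2c allele in the tail, sequenced knockout mice among them, so the deletion was not always limited to neurons. Whether the brains were perfused to remove blood is not given in the sources used here, and in bulk tissue fewer cells of a type cannot be told apart from less RNA per cell.

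Haemoglobin is a tetramer of α-globin and β-globin chains, each holding a haem group that binds oxygen, and it fills the red cell. Mature mouse red cells have lost their nucleus, but young red cells (reticulocytes) in blood still carry globin mRNA. Neurons, astrocytes and endothelial cells have also been described as holding low levels of globin mRNA. Alas2 encodes the erythroid form of 5-aminolevulinate synthase, the first enzyme of haem synthesis, while Alas1 encodes the form that other tissues use.

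The 5 genes lie at 3 places in the GRCm38 genome (GENCODE M21). Hba-a1 (ENSMUSG00000069919.7, chromosome 11, 32283511 to 32284465) and Hba-a2 (ENSMUSG00000069917.7, chromosome 11, 32296489 to 32297298) are neighbours on the plus strand. Hbb-bs (ENSMUSG00000052305.6, chromosome 7, 103826534 to 103828096) and Hbb-bt (ENSMUSG00000073940.3, chromosome 7, 103812524 to 103813996) are neighbours on the minus strand. Alas2 (ENSMUSG00000025270.13) spans 150547375 to 150570638 on the plus strand of chromosome X. Each globin gene has 3 exons in its longest transcript and Alas2 has 11.

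Because the levels of the 5 genes went together across libraries, the sequences before their RefSeq starts are shown first. All 5 matched the RefSeq promoter table (GRCm38.p6), and the 250 bases upstream of the RefSeq start are printed 5′ to 3′ on the strand of the gene, with every match to 4 motifs in capitals. RefSeq and GENCODE place the starts at different bases, so each window lies partly inside the GENCODE span given above. The motifs, searched on both strands, were GATAA (bound by GATA factors), CACCC (bound by Krüppel-like factors), CCAAT and the TATAA box.
Hba-a1 (chr11:32283422-32283671, plus strand): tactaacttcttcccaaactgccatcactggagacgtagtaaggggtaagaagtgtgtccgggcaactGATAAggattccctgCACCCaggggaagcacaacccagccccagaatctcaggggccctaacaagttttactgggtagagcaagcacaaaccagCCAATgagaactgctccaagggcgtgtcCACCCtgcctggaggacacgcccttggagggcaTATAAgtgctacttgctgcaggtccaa
Hbb-bs (chr7:103827929-103828178, minus strand): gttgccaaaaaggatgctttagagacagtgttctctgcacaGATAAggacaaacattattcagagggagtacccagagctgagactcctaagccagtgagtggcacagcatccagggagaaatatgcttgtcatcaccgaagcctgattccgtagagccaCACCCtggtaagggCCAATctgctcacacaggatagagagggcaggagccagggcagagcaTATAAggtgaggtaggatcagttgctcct
Hbb-bt (chr7:103813924-103814173, minus strand): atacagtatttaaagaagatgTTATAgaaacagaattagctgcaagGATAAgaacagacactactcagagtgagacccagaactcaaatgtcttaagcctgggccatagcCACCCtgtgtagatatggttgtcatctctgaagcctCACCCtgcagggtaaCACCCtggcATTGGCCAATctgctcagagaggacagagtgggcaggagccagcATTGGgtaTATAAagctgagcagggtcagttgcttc
Alas2 (chrX:150547167-150547416, plus strand): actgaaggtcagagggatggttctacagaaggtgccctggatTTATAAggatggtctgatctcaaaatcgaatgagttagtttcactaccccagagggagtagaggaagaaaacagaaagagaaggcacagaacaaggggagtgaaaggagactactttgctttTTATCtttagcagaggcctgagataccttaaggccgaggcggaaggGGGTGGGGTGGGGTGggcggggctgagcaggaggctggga
The Hba-a2 window is not printed, because 247 of 247 bases were identical to those of Hba-a1 when the windows were shifted by 3 bases. Without gaps, the windows of Hbb-bs and Hbb-bt were identical at 127 of 249 bases. The 4 globin promoters each held a GATAA match, 1 or more CACCC matches, a CCAAT match and a TATAA whose first base lay 27 to 30 bases before the start. In Alas2 there was no CCAAT, 1 GATAA on the opposite strand and a run of 3 CACCC matches on the opposite strand, and its TATAA matches, which overlap each other, lay 208 and 207 bases before the start. Of 32851 promoter windows of the same length, GATAA was in 22.6%, CACCC in 52.0%, CCAAT in 33.8% and TATAA in 22.8%. The core of the motif to which MEF2 factors bind, CTA followed by any 4 bases and then TAG, was found in none of the 5 windows and in 3.20% of all windows, which says only that these letters are not in these bases.

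Reads were counted by the authors only where they mapped to 1 place, and the globin copies share much of their sequence. Of all 150-base stretches of the longest transcript, 48.4% in Hba-a1 and 65.7% in Hba-a2 also occur in the other α-globin gene, and 58.7% in Hbb-bs and 50.7% in Hbb-bt occur in the other β-globin gene, against 0% in Alas2. Levels of the single globin copies are therefore uncertain. Levels below are CPM divided by a scaling factor per library (rescaled CPM).

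All 5 genes were detected in each of the 33 libraries, with 16 to 18590 reads. Recovered library totals went from 18935045 to 249046089 reads. Gene-level Mef2c had means of 1147 rescaled CPM in Mef2c f/f CS and 1431 in Mef2c-cKO CS, which checks nothing about the deletion, since only 1 exon is removed. All 12 frontal cortex genes, among them Slc17a7 and Camk2a, had at least 1 CPM in every library. A Mef2c-cKO CS library, replicate 8, stood apart in all 5 genes. Log2 fold changes that rest on it are given with and without it. Group means, ratios and correlations over the 33 libraries are given only with it.

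Per kilobase of the longest transcript, Hbb-bs was the highest of the 5 genes in WT CS at 67.4 ± 37.7 rescaled CPM per kb (SD, n = 6). Hba-a1 had 20.2 ± 13.5, Hbb-bt 9.08 ± 4.27, Hba-a2 8.05 ± 2.85 and Alas2 1.11 ± 0.109 on the same scale. The erythroid enzyme was thus present at a far lower level than the globins. Of the 7 groups, WT SD had the highest mean and Mef2c f/f CS the next in each of the 5 genes, but these groups' libraries overlapped in every gene. Neighbours in the order of group means overlapped in all cases but 1, Hbb-bt between Mef2c f/f CS and WT RS.

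**Figure D1:**
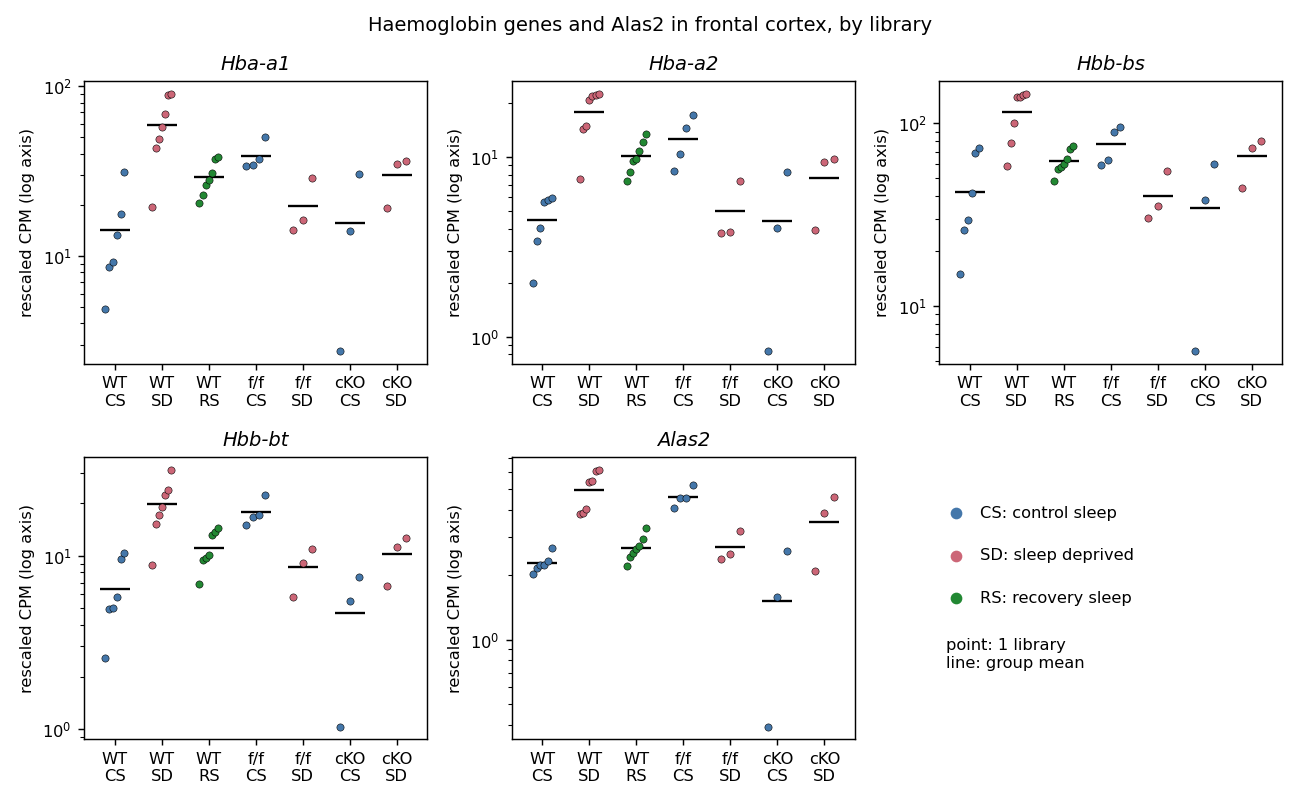
Rescaled CPM (log axis) of Hba-a1, Hba-a2, Hbb-bs, Hbb-bt and Alas2 in each of the 33 libraries by genotype and sleep state (CS, SD, RS; f/f, Mef2c f/f; cKO, Mef2c-cKO). Points are libraries and lines are group means; the WT SD mean is the highest in every panel, f/f SD lies below f/f CS without overlap, and the lowest point of every panel is Mef2c-cKO CS replicate 8.

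The response to sleep deprivation was first followed in Mef2c f/f mice, where all 5 genes were lower in SD than in CS and no library of one state reached the range of the other. Non-overlap in this direction was found in 8.9% of the 12410 genes tested, and nothing is read from the comparison, since the CS libraries served to choose the genes. Hba-a1, an α-globin gene, was at 33.7, 34.2, 50.2 and 37.1 rescaled CPM in the 4 CS libraries and at 16.4, 28.6 and 14.2 in the 3 SD libraries. Its means were 38.8 ± 7.76 (SD, n = 4) and 19.7 ± 7.78 (n = 3). The second α-globin gene, Hba-a2, had 8.37, 10.5, 14.5 and 17.2 rescaled CPM in CS and 3.81, 7.38 and 3.78 in SD.

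Of the β-globin genes, Hbb-bs had 89.5, 58.9, 95.4 and 62.8 rescaled CPM in CS against 35.3, 55.0 and 30.2 in SD. The lowest CS library and the highest SD library of this gene lay close together. Hbb-bt had 22.4, 15.1, 17.2 and 16.6 rescaled CPM in CS against 9.09, 10.99 and 5.80 in SD. Alas2, the enzyme gene, had 4.53, 4.53, 5.23 and 4.10 rescaled CPM in CS and 2.51, 3.20 and 2.38 in SD. Its libraries were the most even of the 5 genes within CS, with an SD of 0.471 around 4.60.

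By limma over all genes, log2 fold changes from CS to SD in Mef2c f/f mice were −1.01 ± 0.22 (SE) for Hba-a1, −1.27 ± 0.27 for Hba-a2, −0.94 ± 0.22 for Hbb-bs, −1.03 ± 0.20 for Hbb-bt and −0.68 ± 0.14 for Alas2. With a threshold of 0.05 on the adjusted p and of 0.3 on the size of the log2 fold change, limma called 0 of the 5, and it called 0.0161% of genes lower, 2 of 12410. The SEs and this count are no test of the 5 genes, which were chosen on these CS libraries. The median log2 fold change was −1.01 over the 5 genes and −0.0043 over all genes tested.

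The count of the 5 genes past these thresholds depended on the tool, and is no test of them for the reason given above. Nothing is read from these counts beside the shares of all genes. DESeq2 on the recovered reads counted all 5 as lower, where it called 2.22% of all genes lower. After correction of each library for GC content and transcript length, limma counted Hba-a2 and Hbb-bt, with 0.408% of genes called lower, and without Mef2c f/f CS replicate 1 it counted every member but Hbb-bs, with 2.09% called lower. With edgeR and under the other alternatives the count was 0.

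In Mef2c-cKO mice the group means were higher in SD than in CS, but the libraries overlapped in all 5 genes. Non-overlap upwards was seen in 4.49% of the 12810 genes tested and in 0 of the 5. Hba-a1 was at 14.05, 30.2 and 2.76 rescaled CPM in CS (replicates 5, 7 and 8) and at 36.4, 19.1 and 34.8 in SD. Hba-a2 had 4.05, 8.30 and 0.837 in CS and 9.72, 3.93 and 9.41 in SD. For both genes CS replicate 7 lay among the SD libraries and CS replicate 8 lay far below them.

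Hbb-bs had 37.8, 59.5 and 5.69 rescaled CPM in Mef2c-cKO CS and 80.2, 44.2 and 73.6 in SD. Hbb-bt had 5.49, 7.55 and 1.03 in CS and 11.3, 6.72 and 12.7 in SD. Alas2 had 1.57, 2.57 and 0.394 in CS and 3.86, 2.09 and 4.58 in SD. In each of these 3 genes only CS replicate 7 lay above the lowest SD library.

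Log2 fold changes from CS to SD in Mef2c-cKO mice were 1.38 ± 0.75 (SE) for Hba-a1, 1.02 ± 0.68 for Hba-a2, 1.41 ± 0.78 for Hbb-bs, 1.31 ± 0.60 for Hbb-bt and 1.11 ± 0.47 for Alas2. By limma, DESeq2 and edgeR 0 of the 5 genes passed the thresholds, and limma called 0.0234% of genes higher. Here too the SEs and the count are no test of the 5 genes. Without CS replicate 8 the log2 fold changes were 0.48 for Hba-a1, 0.27 for Hba-a2, 0.43 for Hbb-bs, 0.58 for Hbb-bt and 0.61 for Alas2. Whether the response of the knockout differed from that of its floxed control was not tested, since the members were chosen on a difference between these genotypes.

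**Figure D2:**
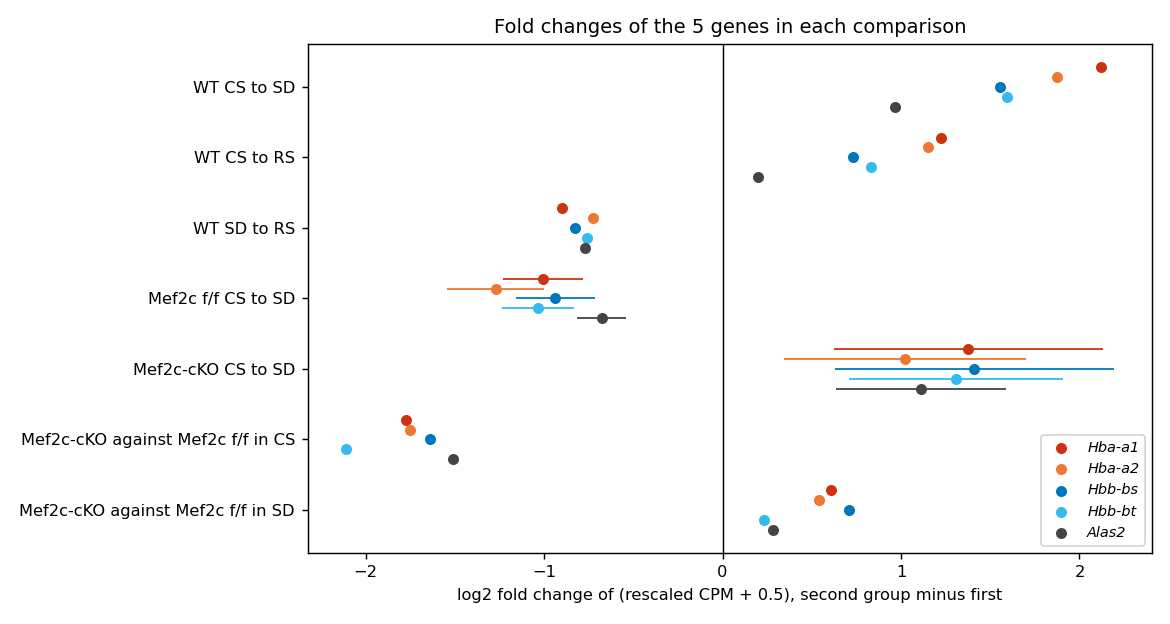
Log2 fold change of rescaled CPM plus 0.5 for the 5 genes in 7 comparisons, second group minus first. Bars are standard errors from limma and are drawn only for the 2 comparisons between CS and SD in Mef2c f/f and Mef2c-cKO mice; the 5 genes lie between −1.27 and −0.68 in Mef2c f/f CS to SD and between 0.97 and 2.12 in WT CS to SD.

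In WT mice, whose libraries served to choose the genes, all 5 group means were higher in SD than in CS. Hba-a1 went from 4.83 to 31.1 rescaled CPM in the 6 CS libraries with a median of 11.2, and from 19.4 to 90.0 in the 7 SD libraries with a median of 57.2. Hba-a2 went from 2.00 to 5.89 (median 4.82) in CS and from 7.60 to 22.5 (median 20.9) in SD. The Hba-a2 ranges did not overlap, whereas the lowest SD library of Hba-a1 lay below the highest CS library.

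The β-globin gene Hbb-bs had 15.1 to 72.9 rescaled CPM (median 35.5) in WT CS and 58.3 to 145 (median 139) in SD. For Hbb-bt the ranges were 2.58 to 10.4 (median 5.41) and 8.84 to 31.4 (median 19.2). Alas2 had 2.01 to 2.67 (median 2.22) in CS and 3.84 to 6.17 (median 5.39) in SD. Both β-globin genes overlapped between the states and Alas2 did not, so 2 of the 5 genes were higher without overlap, a pattern seen in 4.68% of the 12913 genes tested. SD replicate 3 was the lowest SD library of all 5 genes. The group means of log2 values differed by 2.12 for Hba-a1, 1.88 for Hba-a2, 1.56 for Hbb-bs, 1.59 for Hbb-bt and 0.97 for Alas2. Their median was 1.59, where the median over all genes tested was 0.04.

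After recovery sleep the globins stood between CS and SD. The RS libraries had 20.5 to 38.2 rescaled CPM for Hba-a1 (median 28.1), 7.34 to 13.4 for Hba-a2 (median 9.71), 48.4 to 75.4 for Hbb-bs (median 59.9) and 6.88 to 14.4 for Hbb-bt (median 10.1). Relative to the same CS libraries as above, the log2 differences were 1.22, 1.15, 0.73 and 0.83. Alas2 was at 2.20 to 3.32 rescaled CPM in RS (median 2.65), a log2 difference of 0.20 from CS and of −0.77 from SD. Its RS range overlapped that of CS and lay wholly below SD.

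From CS to RS, Hba-a2 was the 1 member that did not overlap, against 1.7% of 12752 genes that were higher without overlap. From SD to RS that member was Alas2, against 0.108% of 12921 genes that were lower without overlap, and these differences are the ones the genes were chosen for. The globins were at log2 differences of −0.90, −0.72, −0.82 and −0.76 from SD to RS, in the order given above. The medians of the 5 genes were 0.83 in RS relative to CS and −0.77 relative to SD, against 0.02 and −0.0047 over all genes.

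Between genotypes in CS, which was also used to choose the genes, Mef2c-cKO lay below Mef2c f/f for 4 of the 5 genes without overlap (Hbb-bs was the exception), and such a gap was seen in 13.5% of 12681 genes. The log2 differences of Mef2c-cKO from Mef2c f/f were −1.78 for Hba-a1, −1.75 for Hba-a2, −1.64 for Hbb-bs, −2.11 for Hbb-bt and −1.51 for Alas2. With Mef2c-cKO CS replicate 8 left out they were −0.88, −1.002, −0.65, −1.38 and −1.01. The median of the 5 genes was −1.75 with all libraries and −1.002 without that one, and over all genes it was 0.03 in either case. In SD the genotypes overlapped in all 5 genes, with log2 differences of 0.61, 0.54, 0.71, 0.23 and 0.28, and 21.6% of 12774 genes were higher in Mef2c-cKO SD without overlap.

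The 2 kinds of control mice did not have the same starting level. In CS, Mef2c f/f libraries lay above all WT libraries for Hba-a1, Hba-a2, Hbb-bt and Alas2, with means 2.75, 2.83, 2.79 and 2.03 times the WT means, and 9.26% of 12798 genes were higher without overlap. Hbb-bs overlapped at 1.81 times. In SD, Mef2c f/f lay below all WT libraries for Hba-a2, Hbb-bs and Alas2, at 0.281, 0.350 and 0.542 times the WT means, and 16% of 13050 genes were lower without overlap. Mef2c f/f SD levels of Hba-a1 and Hbb-bt overlapped those of WT SD, at 0.332 and 0.437 times. Genotype, breeding and sample set cannot be told apart here, and whether WT responded to SD differently from the floxed mice was not tested.

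The proportions of the gene copies were described next, as ratios of rescaled CPM without a length adjustment. Hba-a2 stood at 0.0644 to 0.710 of Hba-a1 over the 33 libraries with a median of 0.305, and both extremes were WT CS libraries, replicates 5 and 2. WT CS replicate 5 had the highest Hba-a1 of its group, 31.1 rescaled CPM, and the lowest Hba-a2, 2.00. Outside WT CS the ratio stayed between 0.206 and 0.464.

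For the β-globin pair, Hbb-bt stood at 0.123 to 0.265 of Hbb-bs with a median of 0.171. This ratio was 0.180 to 0.265 in the 4 Mef2c f/f CS and 0.192 to 0.258 in the 3 Mef2c f/f SD libraries, against 0.127 to 0.182 and 0.141 to 0.173 in the Mef2c-cKO libraries. Reads of α-globin genes summed to 0.297 to 0.712 of those of β-globin genes.

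**Figure D3:**
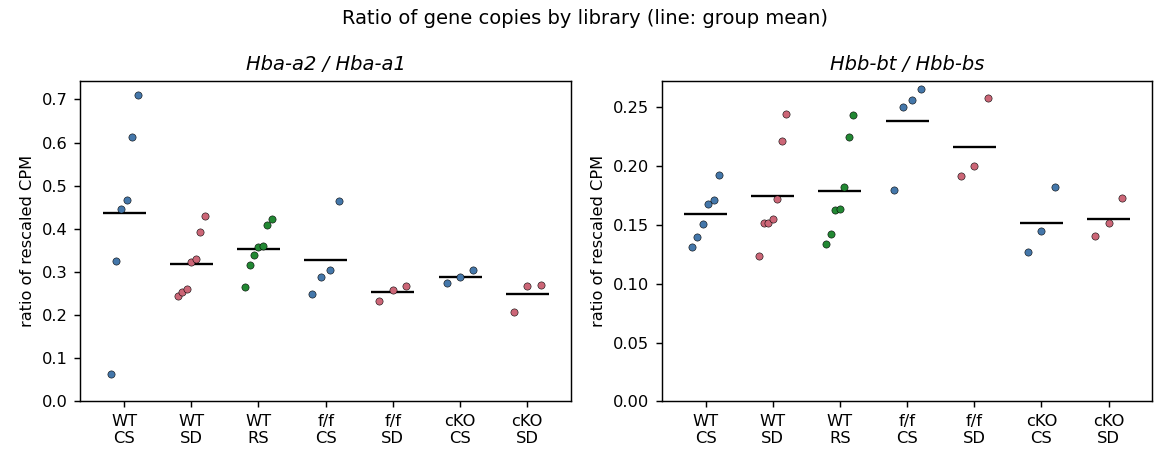
Ratio of rescaled CPM of Hba-a2 to Hba-a1 (left) and of Hbb-bt to Hbb-bs (right) in each library, by genotype and sleep state; points are libraries and lines are group means. The α-globin ratio is most scattered in WT CS (0.0644 to 0.710), and the β-globin ratio has its highest group mean, 0.238, in Mef2c f/f CS.

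Within groups the members also varied together. Pearson's r of their deviations from group means, over 33 libraries, went from 0.617 (Hba-a2 with Hbb-bs) to 0.939 (Hba-a1 with Hbb-bs) for the 10 pairs. The pairs of Alas2 with a globin had 0.722 to 0.795. Members share the library and its depth and composition, and copies share reads, so these values are descriptions. Such values are not particular to the members. Of 13447 other genes the highest with the mean globin level, by deviations, were Cox6a2 (0.829), Cygb (0.827) and Kirrel2 (0.813). WT CS showed the widest relative spread of Hba-a1 among WT groups, with an SD of 66.6% of the mean, where WT RS had 23.1%.

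The other enzymes of haem synthesis were followed between CS and SD in Mef2c f/f and Mef2c-cKO mice. The median log2 fold changes of the 8 enzymes of the list, among them Alas1, Alad, Urod and Fech, were −0.05 and −0.09 in these genotypes, against −0.0043 and −0.0054 over all genes. None was called, but limma called only 0.0403% of all genes in Mef2c f/f and 0.0234% in Mef2c-cKO mice, and Alas2 itself was not called either. Alas1, the housekeeping partner of Alas2, had means of 38.0 ± 4.81 (SD, n = 4) and 36.2 ± 0.278 (n = 3) rescaled CPM in Mef2c f/f CS and SD. Fech, which inserts iron into the porphyrin ring, had 46.6 ± 2.10 and 44.5 ± 1.18.

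In WT mice limma called 45.1% of genes between CS and SD, and 3 of the 8 enzymes were among those called higher, including Alad (log2 fold change 0.52, adjusted p = 0.0204) and Urod (0.47, 0.0155), which act in the middle of the pathway. After correction for GC content and transcript length, an alternative chosen for the gene lists after seeing the data, 0 of the 8 and 21.7% of all genes were called, with log2 fold changes of 0.14 for Alad and 0.18 for Urod. Alas1 had a log2 fold change of 0.09 (limma adjusted p = 0.407). From CS to RS, where 17.5% of genes were called, Alad alone of the 8 was called, at 0.42 (limma adjusted p = 0.0425), and the call was lost when any 1 of WT CS replicates 1, 2 and 3 or of WT RS replicates 3, 4, 5, 6 and 12 was left out. In those fits limma called only 0 to 223 genes over the whole table, against 2232 with every library. The loss is thus not particular to Alad. After the correction the value of Alad was 0.11 (limma adjusted p = 0.332) with 4.18% of all genes called, and edgeR called none of the 8 and 12.7% of all genes.

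Of 23 listed genes of haem and iron handling, 21 were tested. None was called in the SD response of Mef2c f/f or Mef2c-cKO mice, with medians of 0.01 and −0.04. From CS to SD in WT mice 6 rose and 3 fell by limma, or 9 of 21, close to the 45.1% called over all genes. Slc25a38, the mitochondrial glycine carrier that feeds haem synthesis, rose by 0.65 (adjusted p = 0.00434), and the ferritin genes Fth1 and Ftl1, which encode the iron store, rose by 0.62 (0.0105) and 0.77 (0.0159). Blvrb, a biliverdin reductase, rose by 0.57 (0.00686). Abcb10 and Bach1 also rose. Tfrc, the transferrin receptor that takes up iron, fell by 0.36 on the log2 scale (0.0395), and Ireb2 fell by 0.33 (0.0177). After the correction for GC content and length Bach1 and Fth1 were the 2 of the 21 called, where 21.7% of all genes were, and Fth1 was higher by 0.60 (limma adjusted p = 0.0103).

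Other globins were few. Of 10 listed genes, 7 were under 1 rescaled CPM in every library and Hbb-bh2 was at 0 reads in all 33. The embryonic genes Hbb-y, Hbb-bh1 and Hba-x had 0 to 5, 0 to 1 and 0 to 1 reads. Cygb, cytoglobin, which is found in fibroblast-like cells and some neurons, was the most abundant, with 18.2 ± 5.03 (SD, n = 6) rescaled CPM in WT CS and 25.9 ± 3.85 (n = 7) in WT SD, a rise of 0.53 on the log2 scale (limma adjusted p = 0.0221) that was 0.07 after the GC and length correction (adjusted p = 0.539). In Mef2c f/f mice Cygb had 18.8 ± 1.47 in CS and 15.96 ± 0.613 in SD (adjusted p = 0.246).

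Markers of blood and vessel cells were read beside the globins. Of 17 listed red cell genes, 15 were under 1 rescaled CPM in every library, and the 17 summed to 2.25 to 4.85 rescaled CPM per library. Slc4a1, the red cell anion exchanger, had 1 to 7 reads in WT CS, 10 to 28 in WT SD and 2 to 17 in WT RS, or 0.0468 ± 0.0229 (SD, n = 6), 0.161 ± 0.0848 (n = 7) and 0.0647 ± 0.0222 (n = 7) rescaled CPM. In Mef2c f/f mice it was at 0.147 ± 0.0837 in CS and 0.0329 ± 0.0570 in SD, with 0 reads in the lowest SD library, and in Mef2c-cKO mice at 0.121 ± 0.118 (0 to 10 reads) and 0.160 ± 0.108 (2 to 15 reads). The group means of this 1 gene, at very few reads, had the order of the globins within each genotype, and the sum of the list did not. The sum had means of 3.31, 4.14 and 3.15 rescaled CPM in WT CS, SD and RS, of 3.21 and 2.83 in Mef2c f/f CS and SD, and of 4.13 and 3.63 in Mef2c-cKO CS and SD, so that it was lower in SD than in CS in the knockout. With 15 of its 17 genes under 1 rescaled CPM, this sum is a weak measure of red cells. Slc4a1 is 1 of 17 genes, the group means of the others are not given here, and nothing is read from either order. Tal1, also of the list, had a log2 fold change of −0.31 from CS to SD in Mef2c-cKO mice (limma adjusted p = 0.998), where the mean of Slc4a1 was higher in SD. Gypc, glycophorin C, was the 1 gene of the list tested in WT CS to SD, with a log2 fold change of 0.52, and it passed the filter on low values only through WT SD, where it was higher, so its call is not read. Gata1, the erythroid transcription factor, had 0 to 4 reads.

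Neutrophil and platelet genes were also near the limit. White cell and platelet genes summed to 3.97 to 6.94 rescaled CPM in WT CS, 7.45 to 14.1 in WT SD, 5.98 to 10.8 in WT RS, 6.39 to 8.40 in Mef2c f/f CS, 7.96 to 8.03 in Mef2c f/f SD, 8.54 to 15.04 in Mef2c-cKO CS and 8.79 to 12.6 in Mef2c-cKO SD. This sum was lower in WT CS than in WT SD without overlap and did not fall from CS to SD in Mef2c f/f mice. Since 11 of its 18 genes were under 1 rescaled CPM in every library, it too is a weak measure, and nothing is read from its order. Of the 2 genes of the list tested in WT CS to SD, both of the platelet surface, Gp1bb rose by 0.69 (limma adjusted p = 0.00790) and was not called after the GC and length correction. Itga2b had a log2 fold change of 0.66, but passed the filter only through WT SD, where it was higher, so its call is not read.

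The 18 vessel wall genes summed to 364 to 543 rescaled CPM in WT CS and 425 to 483 in WT SD, and to 317 to 351 and 326 to 374 in Mef2c f/f CS and SD. Vwf, von Willebrand factor of the endothelium, had 6.10 ± 1.20 (SD, n = 6) rescaled CPM in WT CS, 13.3 ± 4.59 (n = 7) in WT SD and 9.07 ± 1.89 (n = 7) in WT RS. It rose from CS to SD by 1.02 (adjusted p = 0.00142), and in Mef2c f/f mice it had 10.7 ± 2.68 in CS and 8.22 ± 0.988 in SD (adjusted p = 0.352). Of the 18 genes 6 rose and 2 fell in WT CS to SD, near the 45.1% of all genes called, and 0 were called in the SD response of the other genotypes, where limma called 0.0403% and 0.0234% of all genes. The 6 that rose in WT were mixed in Mef2c f/f CS to SD. Their log2 fold changes there were −0.34 for Vwf, −0.14 for Cldn5, −0.0004 for Vtn, 0.16 for Tagln, 0.17 for Acta2 and 0.20 for Slc2a1. Tek and Rgs5 were the 2 that fell in WT. After the GC and length correction 4 of the 18 were called in WT, Slc2a1, Vwf, Acta2 and Tagln, near the 21.7% of all genes called. The part of blood left in the tissue in the globin values was not tested.

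**Figure D4:**
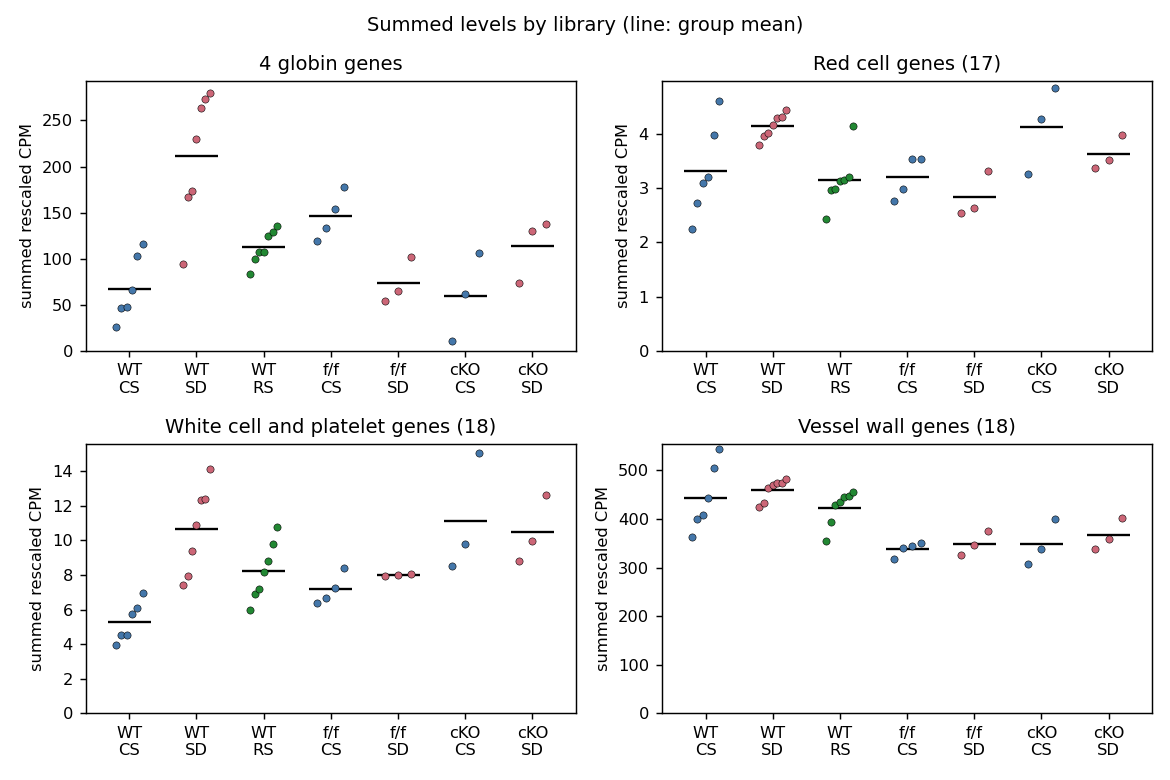
Summed rescaled CPM per library of the 4 globin genes, of 17 red cell genes, of 18 white cell and platelet genes and of 18 vessel wall genes, by genotype and sleep state; each axis starts at 0, points are libraries and lines are group means. The globin sum goes from 10.3 in Mef2c-cKO CS replicate 8 to 279 in WT SD, while the sum of the red cell genes is at most 4.85 in all libraries.

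Base composition of the libraries moved with the globins. A GC index was taken for each library as the median log2 deviation of the 10% of genes richest in GC minus that of the 10% poorest. It went from −1.80 to −0.09 in WT CS, from −0.02 to 0.69 in WT SD and from −0.24 to 0.74 in WT RS. In Mef2c f/f mice it went from −0.38 to 0.38 in CS and from −0.34 to −0.05 in SD, and in Mef2c-cKO mice from −0.15 to 0.10 and from −0.08 to 0.14. Over the 33 libraries Pearson's r with the mean log2 level of the 4 globins was 0.653, and 0.516 for deviations from group means, and with Alas2 it was 0.371 and 0.140.

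The members had GC contents of 57.2% (Hba-a1), 56.9% (Hba-a2), 53.3% (Alas2), 51.3% (Hbb-bs) and 50.8% (Hbb-bt), with a median of 49.7% over 12802 expressed genes. After correction for GC content and transcript length the WT CS to SD log2 differences were 1.38 for Hba-a1, 1.03 for Hba-a2, 1.07 for Hbb-bs, 1.19 for Hbb-bt and 0.77 for Alas2. From CS to RS they were 0.60, 0.45, 0.35, 0.51 and 0.04 in the same order. Those of Mef2c f/f mice from CS to SD stayed at −0.999, −1.27, −0.95, −1.04 and −0.64.

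**Figure D5:**
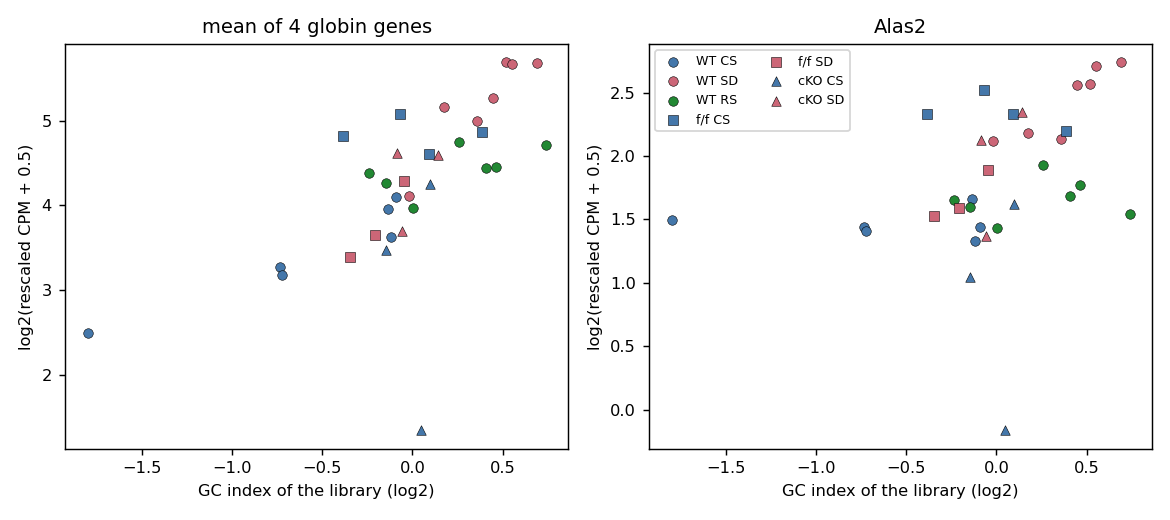
Mean log2(rescaled CPM + 0.5) of the 4 globin genes (left) and of Alas2 (right) against the GC index of the library (log2 units); colours mark the sleep state and shapes the genotype. Globin levels are higher in libraries of higher index, with WT CS at the lower left, and Mef2c-cKO CS replicate 8 lies far below the others at an index near 0.

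Among 13447 other genes with at least 1 CPM in all replicates of 1 or more groups, those most like the mean globin level across the 33 libraries were Ccdc9 (Pearson's r = 0.826), Lzts3 (0.810), Sart3 (0.810), Shf (0.807) and Dmpk (0.794). For deviations from group means they were Cox6a2 (0.829), the globin relative Cygb (0.827), Kirrel2 (0.813), Lzts3 (0.799) and Cort (0.786). All of these values share libraries, depth and base composition. They also include Mef2c-cKO CS replicate 8, which lay far below the other libraries in the globins, and are not given without it. The likeness to Alas2 was lower. Its 5 nearest genes were Ccdc9 (0.723), Dmpk (0.713), Vegfa (0.706), Neurl1b (0.653) and Shf (0.630), and by deviations Vsig8 (0.770), Igf2 (0.633), Dll1 (0.631), Tmem74b (0.630) and Camkk2 (0.620). The values of Vsig8 and Igf2 rest on few libraries, since Vsig8 had means of 4.01 and 9.04 rescaled CPM in Mef2c-cKO CS and SD and of at most 0.185 in the other groups, and Igf2 had means of 23.8 to 38.2 in the Mef2c f/f and Mef2c-cKO groups and of at most 0.00102 in the WT groups. The listed CPM summed to 1000000 in Mef2c f/f and Mef2c-cKO libraries but to 925580 to 985958 in WT libraries. Whether the near absence of Igf2 in WT comes from the animals or from the counting was not tested.

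These 16 genes had GC contents of 50.9% (Vegfa) to 64.4% (Shf), all above the median of the expressed genes. No gene of the red cell lists was among them. Of the 17 listed red cell genes, 15 were under 1 rescaled CPM in every library, so the filter left few to rank. Nothing is read from their absence. Ccdc9 had 18.2 ± 3.23 (SD, n = 6) rescaled CPM in WT CS and 26.3 ± 3.61 (n = 7) in WT SD, and 29.6 ± 3.29 (n = 4) and 24.7 ± 1.70 (n = 3) in Mef2c f/f CS and SD. Its direction in each genotype was that of the globins, at smaller differences, which its choice by likeness over the same libraries favours.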

How the data were processed

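Frontal cortex RNA was measured by RNA-seq with 150-base paired reads in 33 samples. According to the study's methods, reads were trimmed and mapped to mm10 by STAR, and HTSeq then counted those with a single place per gene, which the authors deposited as CPM (counts per 1000000 reads). The annotation release and tool versions are not given in the sources used here. All 711645 deposited CPM values came out as whole reads to within 0.01 when divided by the value of 1 read, and library totals were 18935045 to 249046089 reads. The members and the gene lists were chosen with earlier results of these data known.

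Rescaled CPM were obtained with 1 factor per library (0.716 to 1.14), the median of its ratios to the geometric mean over 11570 genes. A gene was tested if it had at least 1 CPM in all replicates of 1 or both compared groups, which all 5 members passed in all comparisons. Hba-a2 and Alas2 passed through the other group only where Mef2c-cKO CS was compared, since its replicate 8 was below 1 CPM. Tests used limma 3.58.1 (R 4.3.3) on log2(rescaled CPM + 0.5) with a mean-variance trend, fitted on the compared groups, with Benjamini-Hochberg adjustment over all tested genes. A gene was called when its adjusted p did not exceed 0.05 and its log2 fold change was 0.3 or more in size. Fold changes on this scale understate those of low genes. Nothing in the labels says that the libraries are separate animals, so p-values measure the spread between these samples, which may be technical. No pair of libraries within a group agreed within sampling noise. The fits between CS and SD in Mef2c f/f and Mef2c-cKO mice were planned as tests of the 5 genes, but their CS libraries were among those used to choose the genes, so no p-value of the 5 genes is given.

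Other settings tried were a pseudocount of 0.1 or 1, CPM without rescaling, quantile normalization, omission of the filter, a filter of 5 CPM in every library, a correction for GC content and transcript length (GENCODE M21, longest transcript), edgeR 4.0.16 and DESeq2 1.42.0 on recovered reads, 1 fit over 7 groups, a replicate block, and leaving out each library. The fits were tested on simulated data. Named genes were the 5 members, genes of the lists that were called or defined their list, the targeted gene and the 5 genes with the highest Pearson's r to the globins and to Alas2, by level and by deviation from group means. Ccdc9 was given with its levels after its values were seen. Some genes of the lists were counted but are not reported by name here.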

Additional observations from a re-analysis of the deposited data

Results flagged for a closer look

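Hba-a2 and Alas2 stood in opposite directions in the 2 control genotypes, as did the group means of the other members. Every WT SD library lay above every WT CS library, and every Mef2c f/f SD library lay below every Mef2c f/f CS library, for Hba-a2 and Alas2. For Hba-a1, Hbb-bs and Hbb-bt the WT states overlapped. Their log2 changes from CS to SD were 2.12, 1.56 and 1.59 in WT and −1.01, −0.94 and −1.03 in Mef2c f/f mice. The log2 change from CS to SD in Mef2c f/f mice minus that in WT mice was −3.15 for Hba-a2 and −1.64 for Alas2. The difference was not tested, since WT and Mef2c f/f libraries served to choose these genes. Mef2c f/f and WT libraries also differed in depth, with 18935045 to 52918796 reads in Mef2c f/f and 44395583 to 249046089 in WT, and in the GC index. The listed CPM summed to 1000000 in Mef2c f/f libraries and to 925580 to 985958 in WT libraries. What part any of these had in the difference was not tested. In 28 sets of values from groups of 4 to 7 libraries, none stood apart by the gap to the nearest value, a check that would flag about 1 in 20 sets by chance. Groups of 3 libraries were not examined in this way, Mef2c-cKO CS with its low replicate 8 among them.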

How the results depend on the processing

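For the 5 genes, 642 of 661 values of single genes and of their ratios over the comparisons and alternatives did not move: they kept their direction and, in the Mef2c f/f and Mef2c-cKO CS to SD comparisons, their side of the threshold, and elsewhere differed by less than 1 SD between replicates. The ratios could not move, since the factor of a library cancels in a ratio, so their stability was not checked. In Mef2c-cKO CS to SD an uncalled value that kept its direction counted as unmoved at any size. With 1 library left out, Hba-a1 went from 0.48 to 2.10 there and Hba-a2 from 0.27 to 1.63. In Mef2c f/f CS to SD 11 values passed the threshold only under an alternative, and in the comparisons without calls 7 values moved by more than 1 SD. The value that reversed was Hbb-bt between Mef2c-cKO and Mef2c f/f in SD, at 0.23 with all libraries and −0.014 to 0.49 with 1 library left out, the lowest being without Mef2c f/f SD replicate 3. The number of the 5 genes called in Mef2c f/f CS to SD was 0, became 2 with the GC and length correction and 5 with DESeq2, and was between 0 and 4 when 1 library was left out, 4 without Mef2c f/f CS replicate 1. The cause was not tested. In WT CS to SD the GC and length correction took the genes called to 0 of 8 haem synthesis enzymes, 2 of 21 of haem and iron handling and 4 of 18 of the vessel wall. In Mef2c f/f CS to SD the genes called over the whole table were 5 by limma, 9 by edgeR, 467 by DESeq2, 127 after the GC and length correction and 590 without Mef2c f/f CS replicate 1. In Mef2c-cKO CS to SD, 0 of the 5 were called under any alternative, while DESeq2 called 25 genes and limma 3.

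Median log2 differences of the 5 genes kept their direction. Leaving out 1 library gave 1.38 to 1.76 in WT CS to SD, 0.62 to 0.99 in WT CS to RS, −0.93 to −0.72 in WT SD to RS, −2.36 to −1.002 between the genotypes in CS and 0.33 to 0.90 in SD. The other alternatives gave 1.07 to 1.84, 0.45 to 0.996, −0.89 to −0.72, −1.90 to −1.53 and 0.36 to 0.62 in that order, and the 5 CPM filter left 1 of the 5 genes in WT CS to SD, in WT CS to RS and between genotypes in CS. CPM as deposited moved the median of all genes to 0.30 in WT CS to SD, 0.20 in WT CS to RS and 0.13 between the genotypes in CS.

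Same-numbered libraries did not deviate together throughout (correlations of 0.0467, 0.174 and 0.265 in Mef2c f/f and 0.0689 and 0.150 in Mef2c-cKO, from −0.329 to 0.554 in WT CS to SD, from 0.0681 to 0.666 in WT CS to RS and from −0.726 to 0.333 in WT SD to RS), so the numbers were not taken as pairs. With the replicate block, 0 of the 5 genes were called in Mef2c f/f CS to SD, where 13 genes were called in all, and 0 in Mef2c-cKO CS to SD, where 1 gene was called. In WT the block moved the genes called over the whole table from 5826 to 287 in CS to SD and from 2232 to 4279 in CS to RS. In WT CS to SD it called 0 of the 8 haem synthesis enzymes, 0 of the 21 genes of haem and iron handling and 3 of the 18 vessel wall genes. Block medians of the 5 genes were 1.60, 0.78 and −0.73 in WT CS to SD, CS to RS and SD to RS. No block could be fitted between the genotypes, which share fewer than 2 replicate numbers.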
